A study of Homo sapiens with 24 samples.

Results

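The cytosolic ribosome is built from ribosomal RNA and a fixed set of proteins, those of the large subunit (RPL genes, with the acidic stalk proteins of the RPLP genes) and those of the small subunit (RPS genes). The messenger RNAs of these genes are abundant in growing cells and share a terminal oligopyrimidine (TOP) tract, a C followed by a run of C and T letters at the very start of the transcript, through which the growth-regulating kinase mTORC1 controls their translation. Bead arrays measure the level of the messenger RNA and say nothing of its translation.

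The ribosomal protein genes were chosen by name, with earlier results of these data known. A probe belonged to the set when its platform symbol was RPL or RPS followed by a number, with or without a closing A or X, or was a stalk gene or RPSA, and pseudogenes, kinases and paralogs ending in L were left out. Of 47323 probes and 20046 gene symbols on the array, 113 probes of 68 genes matched. The 110 probes of 67 genes described here were also detected, at p under 0.05, throughout at least 1 of the 8 groups (on each of its 3 arrays), and the 3 left out were both probes of RPL10 and 1 of 2 probes of RPL36A. The 67 genes comprised 40 of the large subunit, the stalk genes RPLP1 and RPLP2, and 25 of the small subunit. Of these genes, 36 had 1 probe and 31 had several, at most 4, and 107 of the 110 probes were detected on all 24 arrays. Some ribosomal protein genes, RPL10, RPLP0, RPS27A and RPSA among them, were not analysed here.

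SCC-61 is a head and neck squamous carcinoma line and HaCaT an immortalized, nontransformed line of skin keratinocytes. All cells of both lines were first starved in medium with 1% serum. Each line was then given AMP-18 (antrum mucosal protein 18, a gastric protein that promotes the growth of normal epithelial cells) at 2 µg/ml, or left untreated, and RNA was taken at 2 h or 24 h. This gave 8 groups of 3 arrays: SCC-61 with AMP-18 for 2 h, SCC-61 with AMP-18 for 24 h, HaCaT with AMP-18 for 2 h, HaCaT with AMP-18 for 24 h, and the untreated cells of each line at each time. Nothing in the labels says whether the 3 samples of a group were separate cultures, so p-values measure only the spread between these samples. The lines were grown in different media, so a difference between the lines and one between their media cannot be told apart. The authors had normalized the values, which are intensities on the log2 scale. A log2 difference of 1 is a doubling, and a negative difference means a lower value with AMP-18, in SCC-61, or at 24 h.

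The 24 arrays detected 18767 to 22161 probes each. All 8 measured keratinocyte markers were detected on all 12 arrays of each line, although KRT14, a keratin of basal keratinocytes, averaged 6.40 in SCC-61 and 12.06 in HaCaT. Of 7 fibroblast markers, COL1A1, COL3A1, DCN and LUM were detected on all 12 SCC-61 arrays, and none of the 7 was detected on all 12 HaCaT arrays. Mean levels in SCC-61 and HaCaT were 5.60 and 4.44 for COL1A1, and 6.86 and 3.66 for COL3A1. For LUM they were 5.91 and 5.63, and DCN was lower in SCC-61 (4.66 and 5.25). The median level of all tested probes was 6.01. Of 5 endothelial markers, CDH5 was detected on all 12 SCC-61 arrays and on 6 HaCaT arrays, and VWF on 6 HaCaT arrays. CDH5 averaged 4.73 in SCC-61 and 5.01 in HaCaT. Of 5 leukocyte markers, CD14 was detected on all 12 arrays of each line, and CSF1R on all 12 and ITGAM on 9 SCC-61 arrays. The endothelial gene PECAM1 and the defining leukocyte gene PTPRC were detected on 0 arrays of either line. In RNA from whole cultures, fewer cells of a kind and less RNA per cell cannot be told apart.

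The start sites of the genes that the results turn on are shown first because the TOP tract is the sequence feature these genes share. RefSeq promoters of GRCh38.p14 were given for 57 of the 67 genes. In 49 of the 57 (86.0%), a C followed by at least 4 letters that were each C or T began within 5 bases of an annotated start on the gene's strand, against 29.5% of 9780 genes with a tested probe and 25.2% of all 27305 genes of the table. Each line below gives 15 bases before the start and 15 from it on, 5′ to 3′ on the gene's strand, with that run in capitals. RPL22, RPS28, RPS18 and RPS7 fell with AMP-18 in SCC-61, RPL28, RPL4 and RPS23 differed most between the lines or in their time course, RPS6 and RPLP1 are included for their roles, and RPL9 and RPS29 are 2 of the 8 genes with no such run.
RPL22 (chr1:6199581-6199610, minus strand): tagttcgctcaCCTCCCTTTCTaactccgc
RPS28 (chr19:8321481-8321510, plus strand): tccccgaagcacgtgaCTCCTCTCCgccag
RPS18 (chr6:33272060-33272089, plus strand): cgcgtcacttccgCTCTCTCTTCCacagga
RPS7 (chr2:3575245-3575274, plus strand): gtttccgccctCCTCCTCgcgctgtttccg
RPL28 (chr19:55385917-55385946, plus strand): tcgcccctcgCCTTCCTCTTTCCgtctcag
RPL4 (chr15:66504841-66504870, minus strand): tacagcgggagtggtaagcaCTTCCTTTTC
RPS23 (chr5:82278340-82278369, minus strand): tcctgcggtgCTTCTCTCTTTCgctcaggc
RPS6 (chr9:19380222-19380251, minus strand): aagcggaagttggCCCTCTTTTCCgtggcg
RPLP1 (chr15:69452803-69452832, plus strand): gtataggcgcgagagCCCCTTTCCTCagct
RPL9 (chr4:39458908-39458937, minus strand): gtacgtaatgacgacagacgttctttcttt
RPS29 (chr14:49598696-49598725, minus strand): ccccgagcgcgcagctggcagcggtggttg

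The runs were 7 (RPS7) to 13 letters (RPL28) long (that of RPL4, of 12 letters, goes on past the bases shown), those of RPL28, RPS18, RPS7 and others began a few bases before the annotated start, and RPL9 had a run of T and C letters that began with T downstream of its start. In the whole window of 250 bases before to 50 after the start, on both strands, CCGGAAG was found in 20 of the 57 genes (35.1%, against 21.6% of genes with a tested probe), TATAAA in 4 (7.02%, against 9.12%), the palindromic Kaiso motif in 4 (7.02%, against 0.951%) and the YY1 motif in 3 (5.26%, against 3.16%). These are letter matches and not shown to be sites.

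After 2 h with AMP-18, the ribosomal protein genes of SCC-61 cells were slightly lower as a group, and no gene was higher past the threshold. Of 110 probes, 24 fell and 0 rose at an adjusted p under 0.05, where 3.69% of all 21580 tested probes fell and 4.95% rose. By the brightest probe of each gene, 12 of 67 genes fell, 7 of 42 of the large subunit with its stalk and 5 of 25 of the small subunit. The changes were small: the median log2 difference over the 110 probes was -0.107, against -0.012 over all tested probes, and 99 of the 110 were negative. For 51 probes all 3 AMP-18 arrays lay below all 3 untreated arrays, and for 0 probes all lay above, against 13.5% and 13.8% of the tested probes.

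RPL7, a protein of the large subunit, had values of 8.80, 8.81 and 8.57 on the AMP-18 arrays of SCC-61 at 2 h, against 9.26, 9.06 and 9.12 on the untreated arrays. All 3 treated arrays lay below the untreated ones, and the log2 difference was -0.42 (standard error 0.09, adjusted p = 0.00274, limma). RPL5, which with RPL11 and 5S rRNA binds the p53 regulator MDM2, had 11.30, 11.01 and 11.06 with AMP-18 and 11.54, 11.44 and 11.41 untreated, with no overlap (log2 difference -0.34, standard error 0.06, adjusted p = 0.000273). RPL22, a large subunit protein that is not needed for ribosome assembly and binds RNA elsewhere, had 9.63, 9.69 and 9.80 with AMP-18 and 9.99, 9.95 and 10.06 untreated, again with no overlap (-0.29, standard error 0.06, adjusted p = 0.00456).

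Among small subunit genes, RPS28 had 10.24, 10.01 and 10.04 with AMP-18 and 10.51, 10.42 and 10.25 untreated. The highest treated array lay just below the lowest untreated one, and the log2 difference was -0.30 (standard error 0.08, adjusted p = 0.0194). RPS18 had 11.45, 11.39 and 11.50 with AMP-18 and 11.70, 11.67 and 11.69 untreated, a clear gap (-0.24, standard error 0.05, adjusted p = 0.00282). RPS26 and RPS7 both fell by 0.28, and RPS7, another protein that binds MDM2, had 9.20 on AMP-18 replicate 1 beside 9.56 and 9.68 on the others. RPL13 fell by 0.29 at its brighter probe, and its other probe did not pass. The other 4 genes past the threshold, RPL23, RPL7A, RPS15 and RPL32, were chosen for naming after their values were seen and had log2 differences of -0.24 to -0.14.

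**Figure D1:**
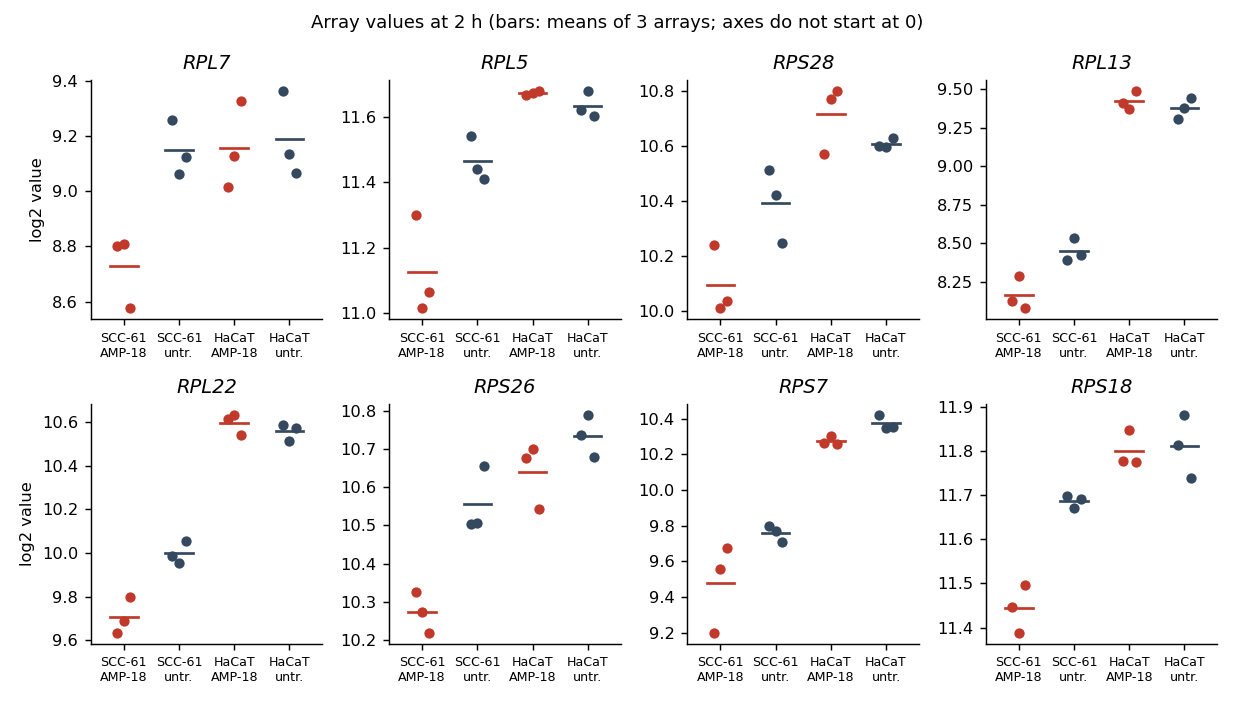
Array values (log2 intensity, each panel with its own axis, not from 0) of the 8 ribosomal protein genes that fell most past the threshold in SCC-61 after 2 h with AMP-18, in both lines at 2 h. Points are arrays and bars the means of 3. In SCC-61 the AMP-18 arrays (left, red) lie below the untreated arrays (dark) in every panel. In HaCaT none of the 8 genes passed, and the treated and untreated arrays of RPL5, RPL7, RPL13 and RPS18, for example, overlap.

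Several role genes did not pass at their brightest probe. RPS6, the small subunit protein phosphorylated by S6 kinase, had a log2 difference of -0.07 (adjusted p = 0.624), RPS4X, encoded on the X chromosome, -0.13 (0.204), RPLP2 of the stalk -0.08 (0.352), RPLP1 of the stalk -0.06 (0.649) and RPL11 -0.02 (0.895). Dimmer probes of 3 of these genes did pass. The second probes of RPS6 and RPL11 fell by 0.18 and 0.20, and both other probes of RPLP1 fell, by 0.49 and 0.19. The RPLP1 probe ILMN_1689725 had 6.34, 6.35 and 6.31 with AMP-18 and 6.90, 6.79 and 6.80 untreated, with no overlap.

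The lowest difference of all, singled out after the values were seen, belonged to the RPL9 probe ILMN_2408415, which had 8.97, 8.50 and 8.42 with AMP-18 and 9.22, 9.15 and 9.27 untreated (log2 difference -0.58, standard error 0.09, adjusted p = 0.000124). The other 2 RPL9 probes did not pass. Of the 31 genes with several probes, 14 had some but not all probes past the threshold, 17 had none and 0 had all. The share of probes that fell also went with brightness: 19 of 57 probes with a mean level up to 12 fell, 4 of 29 between 12 and 13, and 1 of 24 above 13, where the highest value of the whole table is 13.96. The part of the probe's level in the result was not tested. Of the 8 keratinocyte markers 4 were higher with AMP-18 in the same comparison (median log2 difference 0.17) and 0 fibroblast, endothelial or leukocyte markers passed; their part in the result was not tested either.

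**Figure D2:**
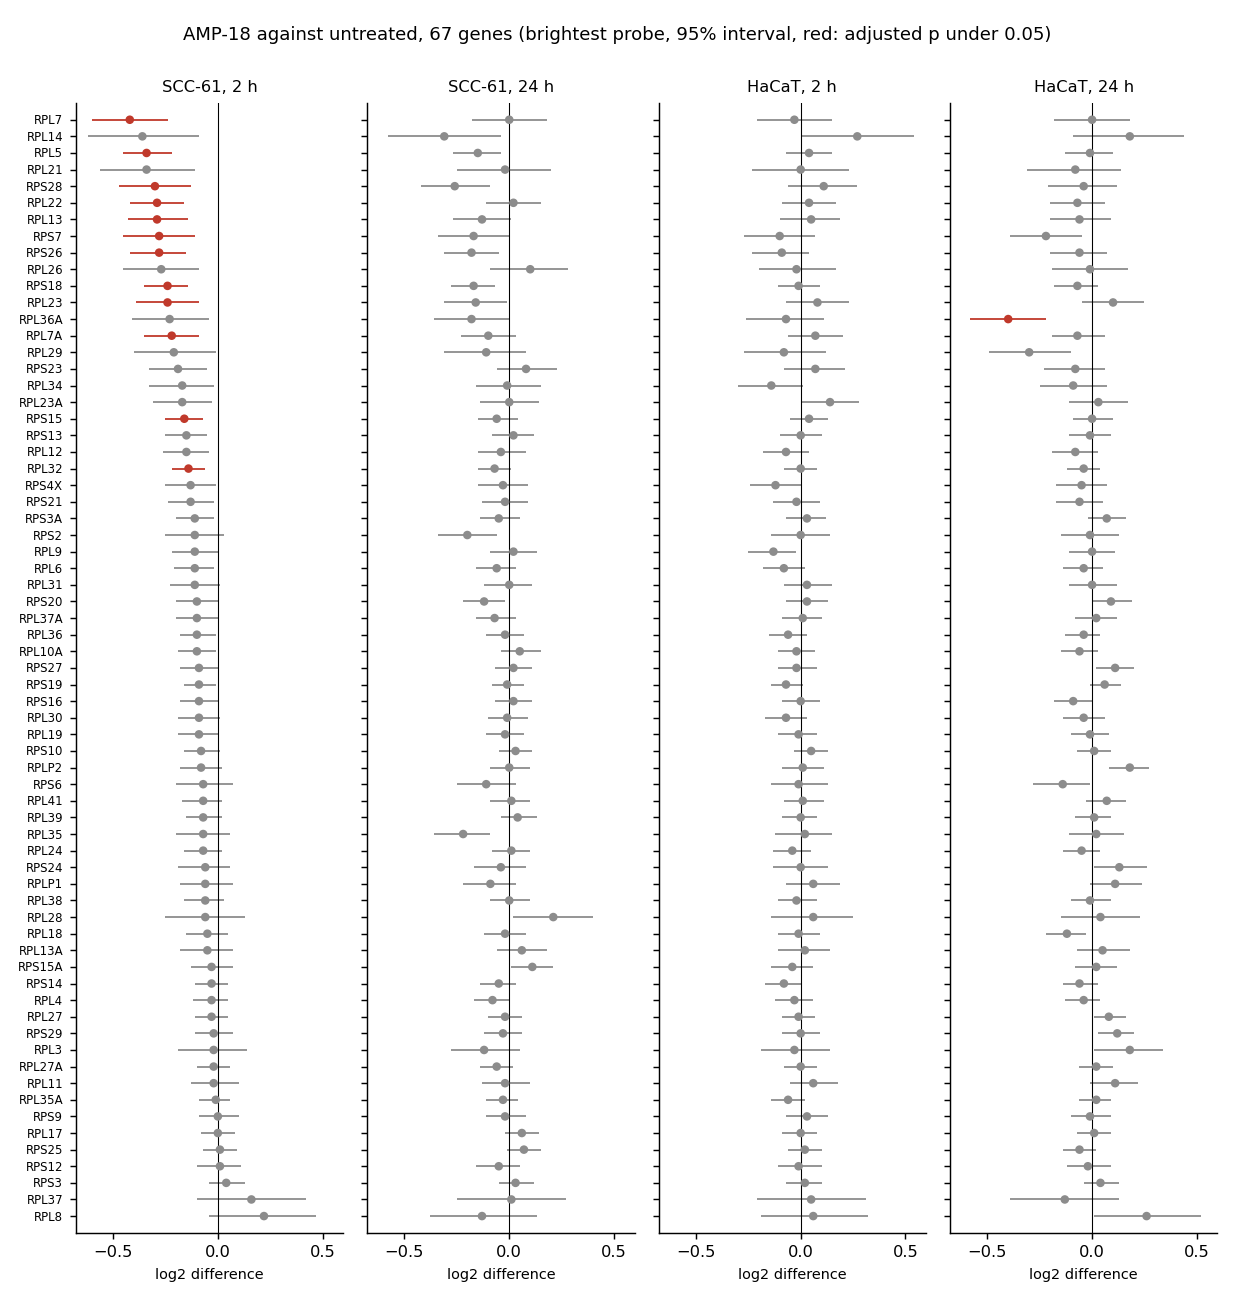
Log2 difference of AMP-18 minus untreated (horizontal axis) for the brightest probe of each of the 67 genes (rows), in SCC-61 at 2 h and 24 h and in HaCaT at 2 h and 24 h, with 95% intervals; red marks an adjusted p under 0.05. In SCC-61 at 2 h, 60 of 67 points lie left of 0 and 12 are red, while the only red point of the other panels is RPL36A in HaCaT at 24 h.

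The count of 24 was 13 without untreated replicate 1 of SCC-61 at 2 h and 12 when only the 6 arrays compared were fitted. By the methods' t-test with adjustment it was 0, and 31 probes had an unadjusted p under 0.05 by that test. RPS28 no longer passed when AMP-18 replicate 2 or 3, or untreated replicate 1 or 2, was left out (adjusted p up to 0.129), and the calls of others also rested on single arrays: that of RPS7 was lost without any 1 of the untreated replicates or AMP-18 replicate 1 (up to 0.273), that of RPL13 without untreated replicate 2 (0.0649) and that of RPS26 without untreated replicate 3 (0.0576).

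In HaCaT cells after 2 h, 0 of the 110 probes passed, where 0.00463% of tested probes did, and 3 had an unadjusted p under 0.05 by limma and 16 by the methods' t-test. The median log2 difference was 0.00 and the range -0.15 to 0.27, and 16 probes had all 3 treated arrays below and 6 all above the untreated ones (8.72% and 7.29% of tested probes). The genes of smallest p were RPL9 (-0.13, 95% interval -0.25 to -0.02, adjusted p = 0.526), RPS14 (-0.08, 0.648) and RPL14 (0.27, 0.648). RPL7 had 9.02, 9.13 and 9.33 with AMP-18 and 9.37, 9.13 and 9.06 untreated, with wide overlap (-0.03, 95% interval -0.21 to 0.15). RPL5 had 11.67, 11.67 and 11.68 with AMP-18 and 11.62, 11.68 and 11.60 untreated, and its difference of 0.04 had a 95% interval of -0.07 to 0.15, which excludes the -0.34 of SCC-61.

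The test of the difference between the lines themselves, the AMP-18 effect in SCC-61 minus that in HaCaT at 2 h, passed for 11 of 110 probes, all with the lower effect in SCC-61, and for 0 in the other direction, where 1.38% and 2.55% of tested probes passed in those directions. By the brightest probe, 3 genes passed: RPS28 at -0.40 (standard error 0.12, adjusted p = 0.0428), RPL5 at -0.38 (0.08, 0.00539) and RPL22 at -0.33 (0.09, 0.038). RPL7 was close, at -0.39 (adjusted p = 0.0745). The other probes past the threshold were RPL9 ILMN_2408415 (-0.61), both dimmer probes of RPLP1 (-0.59 and -0.26), both dimmer probes of RPS3A, and single probes of RPS15A, RPS27 and RPL11. Only RPL5 kept its call without each of the 12 arrays in turn; that of RPL22 was lost without any array but AMP-18 replicate 3 of SCC-61 or of HaCaT (adjusted p up to 0.1), and that of RPS28 without any but untreated replicate 3 or AMP-18 replicate 1 of SCC-61 or AMP-18 replicate 1 of HaCaT (up to 0.129). The count of 11 was 4 without untreated replicate 1 of SCC-61 or untreated replicate 2 of HaCaT, 5 without AMP-18 replicate 2 of HaCaT, 6 without untreated replicate 2 or 3 or AMP-18 replicate 2 or 3 of SCC-61 or untreated replicate 1 of HaCaT, and 7 without AMP-18 replicate 3 of HaCaT, all at 2 h.

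At 24 h the AMP-18 effect passed at no ribosomal protein probe in SCC-61 and at few in HaCaT. In SCC-61, 0 of 110 probes passed (0.283% of tested probes did; 21 had an unadjusted p under 0.05 by limma and 17 by the methods' t-test, and 1 probe passed without untreated replicate 3), with a median log2 difference of -0.03, and 27 probes had all treated arrays below and 3 all above the untreated ones (8.66% and 9.65%). RPS28 had 10.30, 10.39 and 10.43 with AMP-18 and 10.77, 10.56 and 10.56 untreated, with no overlap but an adjusted p of 0.213. Of the 67 genes only RPL35 and RPS18 had smaller p-values (-0.22 and -0.17, adjusted p = 0.167 and 0.175). The change of the SCC-61 effect between 24 h and 2 h was positive for 89 of 110 probes, with a median of 0.08, but 1 probe passed (of RPS15A, 0.26, adjusted p = 0.036, where 1.78% of tested probes passed), and RPL22 and RPL7 did not (0.31 and 0.42, adjusted p = 0.0817 and 0.0856). The count of 1 was 3 without untreated replicate 1 at 24 h or AMP-18 replicate 1 at 2 h, and 0 without any 1 of 8 others, namely the other 5 arrays at 24 h, untreated replicates 2 and 3 at 2 h and AMP-18 replicate 2 at 2 h.

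In HaCaT at 24 h, 4 probes fell and 2 rose, where 0.964% and 0.639% of tested probes did. RPL36A, a large subunit protein encoded on the X chromosome, had 5.85, 5.77 and 5.45 with AMP-18 and 6.12, 5.97 and 6.18 untreated, with no overlap (-0.40, standard error 0.09, adjusted p = 0.0166, but 0.0637, 0.0501 and 0.132 without untreated replicates 1 and 3 or AMP-18 replicate 3). For 13 probes all treated arrays lay above and for 12 all below the untreated ones (7.51% and 9.18% of tested probes). The other 3 that fell were dimmer probes of RPL8 (-0.45), RPS15 (-0.42) and RPS24 (-0.25), and dimmer probes of RPS29 (0.20) and RPLP1 (0.16) rose. The count of 6 was 1 without untreated replicate 3 or without AMP-18 replicate 3, and 3 without untreated replicate 2. The difference of the 24 h effects between the lines passed at 0 probes (0.148% of tested probes), as did the difference between 24 h and 2 h within HaCaT (0.158%). In these comparisons 22 and 8 ribosomal protein probes had an unadjusted p under 0.05 by limma, and 18 and 9 by the methods' t-test. Without untreated HaCaT replicate 3 at 24 h, 1 probe passed in the difference between the lines.

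**Figure D3:**
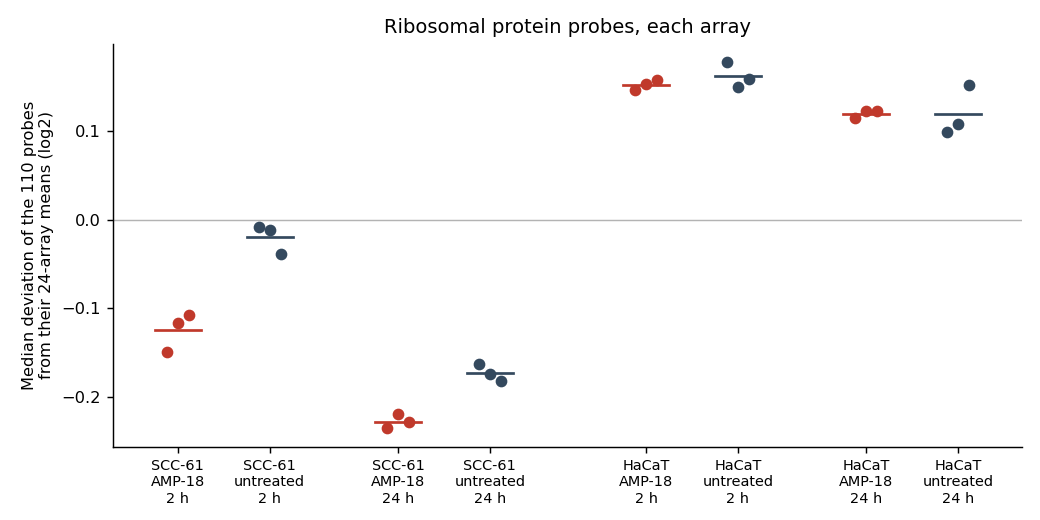
Median over the 110 ribosomal protein probes of each array's value minus the probe's mean over 24 arrays (log2, vertical axis), for the 3 arrays of each group (points; bars are their means), AMP-18 in red and untreated in dark. SCC-61 arrays with AMP-18 at 2 h lie at -0.149 to -0.107 and untreated ones at -0.039 to -0.008, while the 12 HaCaT arrays lie between 0.099 and 0.177.

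Between the lines, most ribosomal protein probes were lower in SCC-61 cells than in HaCaT cells, and a few genes were higher. In untreated cells at 2 h, 60 of 110 probes were lower in SCC-61 and 14 higher, where 30.2% of tested probes were lower and 26.9% higher. At 24 h, 67 were lower and 17 higher (34.6% and 29.8% of tested probes). With AMP-18 in both lines, 74 were lower and 6 higher at 2 h (32.0% and 27.7%), and 70 lower and 13 higher at 24 h (33.8% and 31.5%). The median log2 differences were -0.181, -0.264, -0.294 and -0.31 in that order. These 4 comparisons use 4 separate sets of 6 arrays, and 52 probes were lower in SCC-61 in all 4 (18.1% of tested probes were), 3 were higher in all 4 (17.3%) and 7 were called in both directions (7.53%).

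RPL4, a large subunit protein, had 11.20, 11.14 and 11.15 in untreated SCC-61 at 2 h, against 12.40, 12.38 and 12.34 in HaCaT, far from overlapping (log2 difference -1.21, standard error 0.04, adjusted p = 1.32e-20). RPL23, another large subunit protein that binds MDM2, was lower by a log2 difference of -1.08 and RPS2, a small subunit protein, by -0.84. RPL23A, RPL13 and RPL12 had -0.98, -0.93 and -0.66. RPL28, a large subunit protein, had 5.93, 5.90 and 5.86 in SCC-61 and 6.85, 6.95 and 7.08 in HaCaT at 2 h (-1.06), and 5.14, 5.49 and 5.45 in SCC-61 against 7.74, 7.80 and 7.89 in HaCaT at 24 h (-2.45, standard error 0.09, adjusted p = 6.31e-20), so the gap was wider at 24 h.

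The smaller group of genes higher in SCC-61 was led by RPS19, a small subunit protein mutated in Diamond-Blackfan anemia. It had 13.47, 13.48 and 13.49 in untreated SCC-61 at 2 h and 13.14, 13.14 and 13.15 in HaCaT, a small but tight difference of 0.34 (standard error 0.04, adjusted p = 2.56e-09), and it was higher in all 4 comparisons. The probes of RPL6 and RPL32 did not go one way. At 2 h RPL6 was higher by 0.28 at its brightest probe and by 0.26 at a second, but had a log2 difference of -0.21 at the last. RPL32 was higher by 0.19 at its brightest probe and by 0.67 at a second, which was higher in all 4 comparisons, but had -0.36 at another, which was lower in all 4, and -0.33 at the last, which did not pass. At 24 h, and not at 2 h, RPL36A and RPL29 were the highest above HaCaT. RPL36A had 7.45, 7.36 and 7.53 in untreated SCC-61 at 24 h, against 6.12, 5.97 and 6.18 in HaCaT (1.36), where at 2 h the difference was -0.02, and RPL29 had 0.95 at 24 h and -0.07 at 2 h.

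Of the role genes, RPS4X, RPLP1 and RPL22 were lower in untreated SCC-61 at 2 h (-0.59, -0.59 and -0.56), RPS28 and RPL5 by less (-0.22 and -0.17), and RPL7, RPL11 and RPS6 did not pass (-0.04, 0.04 and -0.07). At 24 h RPL7 had -0.75 and RPS6 -0.27 and both passed, while RPL11 was at 0.01 (adjusted p = 0.912). RPLP2 was higher at both times, by 0.12 and 0.22.

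**Figure D4:**
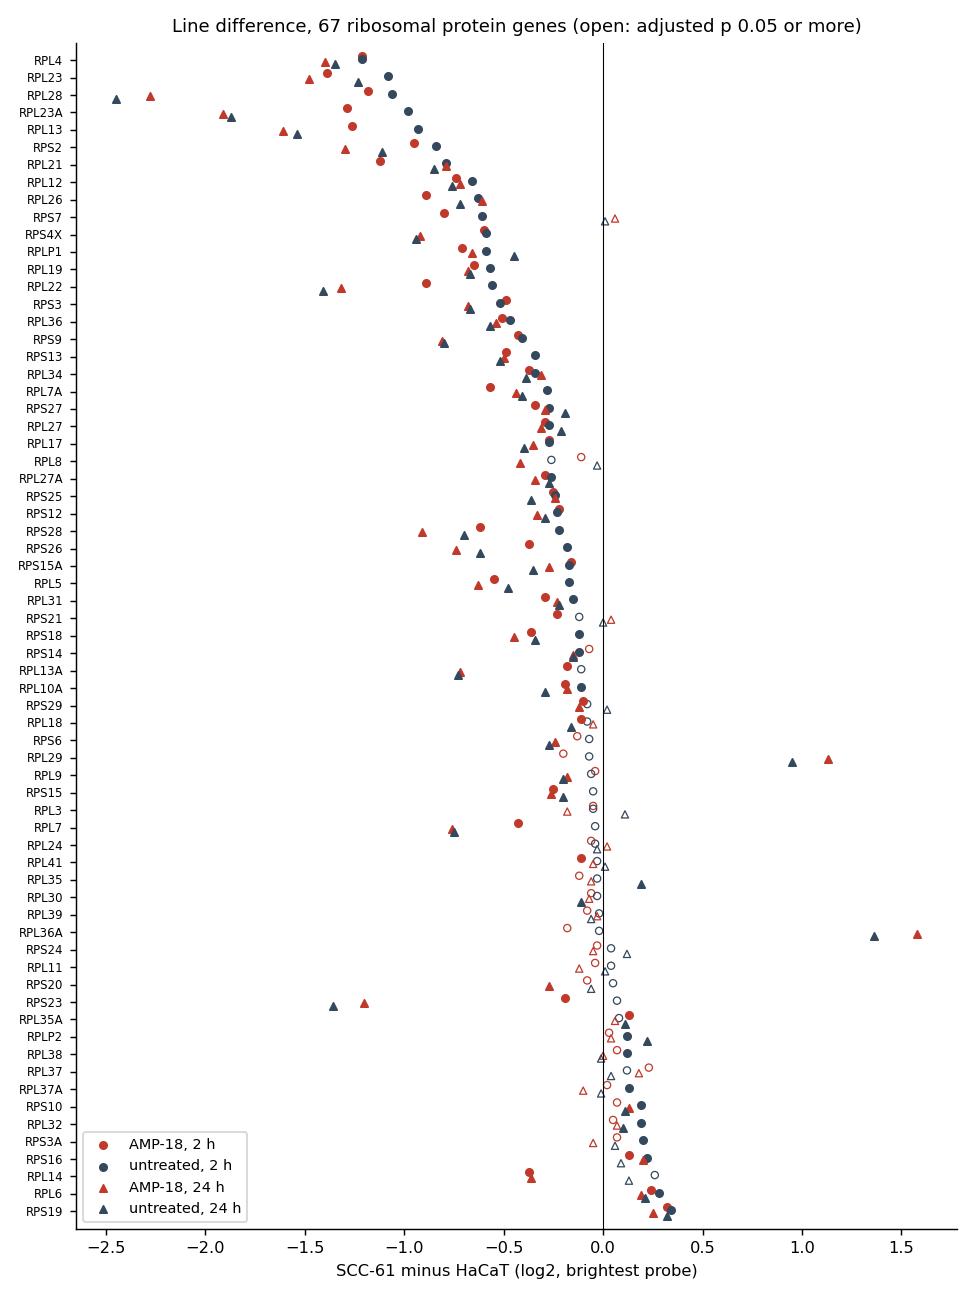
SCC-61 minus HaCaT (log2, horizontal axis) for the brightest probe of each of the 67 genes (rows), with AMP-18 (red) and untreated (dark), at 2 h (circles) and 24 h (triangles); open symbols have an adjusted p of 0.05 or more. Most symbols lie left of 0, RPL28, RPL23A, RPL22 and RPS23 lie farther left at 24 h than at 2 h, and RPL36A and RPL29 lie near 0 at 2 h and right of 0 at 24 h.

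Outside the set, the paralog RPL39L, which can replace RPL39 in the ribosome, was far lower in SCC-61. It had 4.50, 4.74 and 4.29 in untreated SCC-61 at 2 h (detected on 2 of 3 arrays), against 9.98, 9.88 and 9.92 in HaCaT, at least 41.8-fold lower. At 24 h, with detection on 1 of 3 SCC-61 arrays, it was at least 41.7-fold lower. These bounds set each SCC-61 array no lower than the lowest signal counted as detected. RPL39 itself is a member and did not pass at 2 h. RPL22L1, the paralog of RPL22, was detected on 0 of 3 SCC-61 arrays and on 3 HaCaT arrays at 2 h, and was at least 2.79-fold lower in SCC-61. In untreated cells at 24 h, with detection on 2 of 3 HaCaT arrays, the bound was only 1.06-fold. With AMP-18 the bounds were 2.88 at 2 h and 0.892 at 24 h, so no clear difference was shown at 24 h. EEF1G, a subunit of elongation factor 1, was lower in SCC-61 by a log2 difference of -1.37 at 2 h and -1.79 at 24 h. SNHG8, a noncoding RNA with a TOP start, was higher by 3.61 and 3.69. FAU and RPL36AL, ribosomal components left out by the naming rule, were both lower at 2 h (-0.52 and -0.51).

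Between 2 h and 24 h in low serum, probes of the set moved in both directions, and the 2 lines differed. In SCC-61 the set fell more often and rose less often than tested probes did as a whole. In HaCaT both shares were close to those of all tested probes. The 2 h and 24 h arrays may have been handled apart, since the labels give no slide or scan, so time and handling cannot be told apart. Markers of other cell types also moved with time: 3 of 4 fibroblast markers tested were higher at 24 h in each line (medians 0.69 in SCC-61 and 1.78 in HaCaT), and both endothelial markers tested in HaCaT, while PDGFRB, THY1 and PECAM1 were detected on 0 arrays. Much of this was low signal: in HaCaT, COL1A1, DCN and LUM were detected on 6 of 12 arrays each and COL3A1 on 1. In untreated SCC-61, 50 of 110 probes were lower at 24 h and 14 higher, where 27.5% and 24.4% of tested probes were. In untreated HaCaT, 31 were lower and 35 higher (29.3% and 28.6%). In the AMP-18 arrays, which share no sample with these, 37 were lower and 18 higher in SCC-61 (25.1% and 23.5% of tested probes), and 29 lower and 37 higher in HaCaT (30.8% and 29.2%). Over all 4 comparisons, 24 probes were lower at 24 h in each (15.2% of tested probes), 10 higher in each (12.6%) and 12 were called in both directions (6.62%).

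The genes that fell most did so in both lines. RPS7 had 8.02, 8.21 and 8.12 in untreated SCC-61 at 24 h, against 9.80, 9.77 and 9.71 at 2 h (log2 difference -1.64). In HaCaT it had 8.03, 8.03 and 8.27 at 24 h, against 10.42, 10.35 and 10.35 at 2 h (-2.26), and its second probe gave -1.83 and -2.44. RPL29 fell at both of its probes in both lines (-1.40 and -2.42 at the brighter one), RPL36A had -1.18 in SCC-61 and -2.56 in HaCaT, and RPL34 had -1.51 and -1.46 at its brighter probe but -0.67 and 0.45 at the other.

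Other genes went different ways in the 2 lines, and the difference was tested directly. RPS23, a small subunit protein at the decoding center, had 7.17, 7.13 and 7.21 in untreated SCC-61 at 24 h, against 8.23, 8.24 and 8.18 at 2 h (-1.05), while HaCaT had 8.58, 8.57 and 8.45 at 24 h, against 8.17, 8.13 and 8.16 at 2 h (0.38). The time course of RPS23 in SCC-61 minus that in HaCaT was -1.43 (standard error 0.10, adjusted p = 1e-12, limma). RPL28 fell by 0.54 in SCC-61 and rose by 0.85 in HaCaT (difference -1.39), and RPL22 fell by 0.65 and rose by 0.20 (-0.85). RPS28 rose in both lines, by 0.24 in SCC-61 and 0.73 in HaCaT, and RPL13A by 0.15 and 0.76. In all, 32 probes had a more negative and 12 a more positive time course in SCC-61, where 20.8% and 18.9% of tested probes did.

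For many genes the direction over time depended on the probe. In untreated HaCaT, the probes of 11 of the 31 genes with several probes spanned more than 1 log2 unit, and 7 genes had probes called in opposite directions; the same counts in SCC-61 were 6 and 2. The 4 RPS29 probes included ILMN_2298818, with 7.95, 7.86 and 7.79 at 24 h against 5.38, 5.41 and 5.46 at 2 h in HaCaT (log2 difference 2.45), while its brightest probe had -0.10 (adjusted p = 0.0416). The RPS15 probe ILMN_2219131 had 6.54, 6.67 and 6.77 at 24 h, against 9.11, 9.06 and 9.08 at 2 h (-2.42), beside 0.11 and -0.15 at the other 2. Likewise 1 probe each of RPL6 (-2.60), RPL13 (-2.10), RPS24 (-1.95) and RPL36 (-1.61) fell in HaCaT where the brightest probes of these genes had -0.09, 0.39, -0.04 and 0.06. Values of a gene over time are therefore given by probe, and which transcripts each probe reads is not known here.

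**Figure D5:**
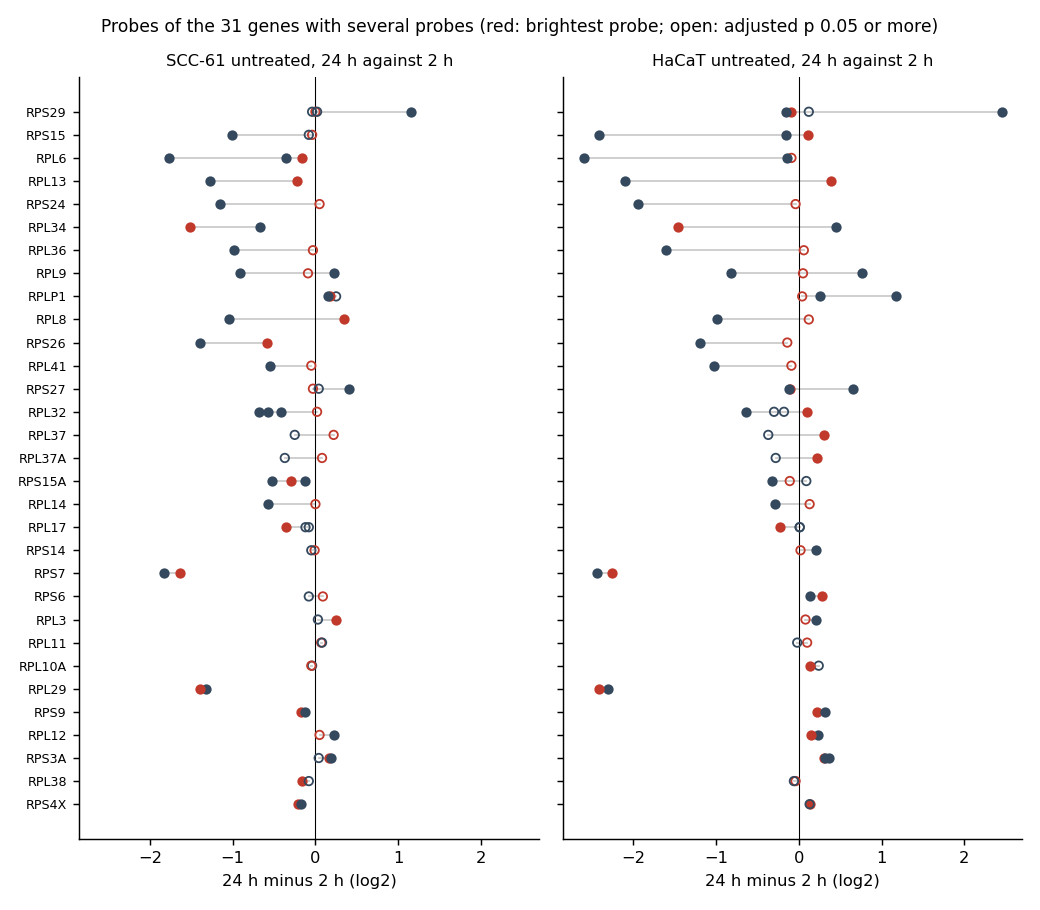
Untreated cells at 24 h minus 2 h (log2, horizontal axis) for every probe of the 31 genes with several probes (rows, ordered by the spread in HaCaT), in SCC-61 (left) and HaCaT (right); red is the brightest probe of a gene, dark the others, and open symbols have an adjusted p of 0.05 or more. RPS29, RPS15, RPL6 and RPL13 have probes more than 2 log2 units apart in HaCaT, while both probes of RPS7 and of RPL29 lie together far left of 0.

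The genes that make and regulate ribosomes gave a setting for these values. The lists, like the ribosomal protein genes, were chosen with earlier results of these data known. Over time in untreated cells, 55 of 57 ribosome biogenesis genes fell in SCC-61 and 56 of 57 in HaCaT, with median log2 differences of -0.81 and -1.33. Of all tested probes 27.5% fell and 24.4% rose in SCC-61, and 29.3% fell and 28.6% rose in HaCaT. The ribosomal protein genes had medians of -0.06 and 0.04 by gene. RRS1, an assembly factor of the large subunit, had 7.18, 7.07 and 7.03 at 24 h in SCC-61 against 8.79, 8.78 and 8.80 at 2 h, and 5.99, 6.11 and 6.17 at 24 h in HaCaT against 9.54, 9.65 and 9.49 at 2 h. No arrays of the 2 times overlapped, and RRS1 had -1.70 and -3.47, the largest fall of its list in each line, with NOP16, a nucleolar protein, at -1.54 and -2.71. Of 76 mitochondrial ribosomal protein genes, 58 fell and 1 rose in SCC-61, and 57 fell and 8 rose in HaCaT. Translation initiation factors fell at 23 of 27 genes in each line, and RNA polymerase I genes, which transcribe ribosomal RNA, at 8 of 16 and 12 of 16.

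DDIT4, an inhibitor of mTORC1, had 11.56, 11.46 and 11.46 at 24 h in untreated SCC-61, against 9.82, 9.79 and 9.76 at 2 h, a rise of 1.70, and rose by 2.67 in HaCaT. PDCD4, an inhibitor of translation initiation that S6 kinase marks for destruction, rose by 2.61 in HaCaT. In untreated SCC-61 it moved less, with means of 8.52 at 24 h and 7.95 at 2 h. EIF4EBP1, another gene of the mTORC1 and S6 kinase list, went the other way in untreated HaCaT (5.37 at 24 h, 6.02 at 2 h). In untreated SCC-61 it averaged 6.23 at 24 h and 5.77 at 2 h. Of 21 genes of mTORC1 and S6 kinase, 8 rose and 3 fell in SCC-61 (24.4% and 27.5% of tested probes) and 10 rose and 5 fell in HaCaT (28.6% and 29.3%). Among 23 genes of translation elongation and other genes with TOP starts, 3 rose and 16 fell in SCC-61, and 7 rose and 4 fell in HaCaT, where the share that rose was close to that of all tested probes.

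After 2 h with AMP-18 in SCC-61, 3.69% of tested probes fell and 4.95% rose (8.64% in either direction). Of 76 mitochondrial ribosomal protein genes, 17 fell and 0 rose (median -0.13). They were led by MRPL19 (-0.39, adjusted p = 0.00153, limma) and MRPS28 (-0.38, adjusted p = 0.00064). Of 57 ribosome biogenesis genes, 5 fell, and of 27 initiation factors EIF4G1, the scaffold of the cap-binding complex, rose (0.33) and EIF3A and EIF3K fell (-0.33 and -0.18). Of the 23 elongation and TOP genes and the 21 genes of mTORC1 and S6 kinase, 0 passed in either direction; their lowest and highest log2 differences were -0.30 and 0.10, and -0.17 and 0.30. In HaCaT at 2 h, 0 genes of any of these lists passed.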

How the data were processed

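RNA of 24 samples was labelled as cRNA and read on Illumina HumanHT-12 version 4 bead arrays. The authors exported values with GenomeStudio 2011.1, per the labels. The deposited values are log2 intensities that came already normalized between arrays (array medians ran from 4.218 to 4.22), with the deposited detection p-value of each probe in steps of 1 in 770. The normalization method is not given in the sources used here, and it removes any shift shared by all probes. All 24 arrays were fitted in limma 3.58.1 (R 4.3.3) as 8 group means with a trended prior, comparisons were contrasts of these means, and p-values were adjusted by Benjamini-Hochberg over the 21580 probes that were detected (p under 0.05) throughout at least 1 group of 3 arrays. The threshold was an adjusted p under 0.05. Groups came from the labels. The fit was tested on simulated data.

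A gene was represented by its tested probe of highest mean. Genes named were, per comparison, up to 8 most positive and 8 most negative past the threshold, or the 3 of smallest p where none passed, with RPLP0, RPLP1, RPLP2, RPL5, RPL11, RPS6, RPS27A, RPSA, RPS4X, RPL10, RPL22, RPS28 and RPL7 for their roles and up to 4 genes from each other list. The ribosomal protein genes and all lists were chosen with earlier results of these data known. Alternatives were the filter, normalization, background constant, arrays in the fit, replicate block, array weights, each array left out and other probes of a gene. A further alternative was the t-test that the study's methods name for comparing groups. The methods do not tie that test to the arrays, for which they describe ranking genes by Fisher's ratio. Replicate numbers did not pair the samples: of 12 pairs of groups, 0 had deviations correlated over 0.1 (range -0.16 to 0.05). The number of arrays limits the precision. Promoter sequences were RefSeq's, of GRCh38.p14.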

Additional observations from a re-analysis of the deposited data

Results flagged for a closer look

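Of the ribosomal protein genes named by the rule, these differed between SCC-61 and HaCaT by a test of the difference itself (limma, adjusted p under 0.05), each as SCC-61 minus HaCaT on the log2 scale at the brightest probe. For the AMP-18 effect at 2 h they were RPS28 (-0.40), RPL5 (-0.38) and RPL22 (-0.33). For the change of untreated cells between 24 h and 2 h, more negative in SCC-61, they were RPS23 (-1.43), RPL28 (-1.39), RPL23A (-0.90), RPL22 (-0.85), RPL7 (-0.71), RPL13 (-0.61), RPL13A (-0.61), RPS28 (-0.49), RPS4X (-0.35) and RPL5 (-0.31). RPL36A (1.38), RPL29 (1.02) and RPS7 (0.62) had a more positive change in SCC-61, where all 3 fell by less than in HaCaT. In all, 22 of the 67 genes passed in the time course, 19 of them more negative in SCC-61. Of all tested probes, 20.8% passed as more negative in SCC-61 and 18.9% as more positive. Genes that passed but are not listed here include RPS26 (-0.45) and RPS9 (-0.39). The 2 sets of comparisons share the untreated arrays at 2 h.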

How the results depend on the processing

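The count of ribosomal protein probes past the threshold after 2 h of AMP-18 in SCC-61 (24) was 12 with only the arrays compared and 0 by the methods' t-test after adjustment, and the adjusted p of all 8 genes named first then lay between 0.0995 (RPS18) and 0.407 (RPS7). At 24 h in SCC-61 (0) it was 17 by the methods' t-test without adjustment and 2 with array weights. In HaCaT it was 16 by the unadjusted t-test at 2 h (0), and at 24 h (6) it was 3 with no filter, 0 with only the arrays compared, 0 by the adjusted and 18 by the unadjusted t-test, and 3 with array weights. For the AMP-18 effect in SCC-61 minus HaCaT at 2 h (11) it was 5 with no filter, 17 with a stricter filter (detected at p under 0.01 on every array), 7 with cyclic loess, 4 and 29 by the adjusted and unadjusted t-test and 19 with array weights, and at 24 h (0) it was 1 with the stricter filter, 18 by the unadjusted t-test and 1 with array weights. For the change of the effect between 24 h and 2 h in SCC-61 (1) it was 0 with no filter, with only the arrays compared and by the adjusted t-test, 11 by the unadjusted t-test and 5 with array weights, and in HaCaT (0) it was 9 by the unadjusted t-test.

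Leaving out 1 array at a time gave 13 to 26 probes for AMP-18 in SCC-61 at 2 h, 0 to 1 at 24 h, 0 to 0 in HaCaT at 2 h and 1 to 8 at 24 h. It gave 4 to 14 for the difference of the effects at 2 h, 0 to 1 at 24 h, and 0 to 3 in SCC-61 and 0 to 0 in HaCaT for the change between times. Between the lines it gave 67 to 72 untreated at 2 h, 78 to 84 untreated at 24 h, 75 to 83 with AMP-18 at 2 h and 80 to 84 at 24 h. Over time it gave 57 to 63 in untreated SCC-61, 54 to 64 in untreated HaCaT, 51 to 59 in SCC-61 with AMP-18, 60 to 67 in HaCaT with AMP-18, and 38 to 44 for the difference between the lines.

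With the replicate number as a block, which the check in the methods gives no ground for pairing on, the counts were 27 and 0 for AMP-18 in SCC-61 at 2 h and 24 h, 0 and 5 in HaCaT, 9 and 0 for the difference of the effects, 1 and 0 for the change between times in SCC-61 and HaCaT, 74 and 83 between untreated lines, 79 and 83 between treated lines, 64 and 65 over time in untreated SCC-61 and HaCaT, 52 and 67 with AMP-18, and 43 for the difference between time courses. In the 2 h difference the block gave adjusted p = 0.0524 for RPL22 and 0.0569 for RPS28 (limma).

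Among the genes named by the rule in each comparison, no other alternative turned a direction that passed, but other probes of a gene did, and genes the rule did not name in a comparison, such as RPS29 and RPS15 over time in HaCaT, also had probes of opposite direction. For the named genes these were, over time, RPL13 (-2.10), RPL17 (0.01 at 2 probes) and RPL34 (0.45) in untreated HaCaT, RPL17 (0.20 and 0.06), RPL34 (0.53) and RPL8 (-1.31) in HaCaT with AMP-18, RPL8 (-1.04), RPL7L1 (-1.02) and TSC1 (-0.22) in untreated SCC-61, TSC1 (-0.08) in untreated HaCaT, RPL32 (-0.47, -0.35 and -0.56) and RPL37A (-0.41) in SCC-61 with AMP-18, and RPL13 (0.82) and RPLP1 (-0.93) in the difference between time courses. Between the lines these were RPL32 (-0.33 and -0.36), RPL37A (-0.77) and RPL6 (-0.21) untreated at 2 h, RPL13 (0.00) and TAF1C (0.28) untreated at 24 h, RPL6 (-0.25) with AMP-18 at 2 h and RPL13 (0.06) with AMP-18 at 24 h. Where a value changed, the cause was not tested. Values near the top of the table have little range left, and probes near background little signal.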
